A study of Oryctolagus cuniculus with 8 samples.

Results

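The 10 genes described here are genes of blood vessel endothelium together with apelin and its receptor: APLN, APLNR, KDR, FLT1, TEK, CDH5, PECAM1, CLDN5, TIE1 and VWF. They were taken by symbol from a table of 25666 genes, of which 19293 were protein-coding, and each symbol had 1 row. RNA of dissected retinas from male Chinchilla rabbits aged about 10 months had been sequenced, with 8 libraries in all and 2 retinas per diet. The diets, fed for 6 months from an age of 12 to 16 weeks, were standard chow alone (ND), chow with 10% lard and 0.5% cholesterol (HFD), chow with 40% sucrose (HSD), and the lard and cholesterol chow of HFD with 35% sucrose added to it (HFSD). ND1 and ND2 denote replicates 1 and 2 of the ND group, and likewise for the other diets. The sources do not state that both retinas of a diet came from different animals, so that the p-values measure the spread between these samples, which may be technical.

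Endothelial cells line every blood vessel. They respond to vascular endothelial growth factor through the receptor KDR, while FLT1 binds the same ligand and acts largely as a decoy. The receptor TEK, which binds the angiopoietins, and its partner TIE1 stabilise vessels. Their junctions hold CDH5 (VE-cadherin), PECAM1 and the barrier claudin CLDN5, and their granules store the clotting factor VWF. Apelin, encoded by APLN, is a secreted peptide of sprouting endothelium, and APLNR is its receptor on endothelial cells. In the rabbit the retinal vessels are confined to the medullary rays, where they run together with myelinated nerve fibres and astrocytes, and the rest of the retina is fed from the choroid.

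Values are FPKM, fragments scaled to gene length and library depth, as the authors computed them, so that levels of different genes can be compared per length. The number of fragments behind each value was recovered from the steps of FPKM. The depth of each library was read from the lowest values of short RNA genes, of which 90 to 100% gave whole gene lengths within the rounding of the values, and each gene was then given the smallest length that made its fragments whole in all libraries. The recovered fragments summed to 96.4 to 103% of the depth. The libraries were scaled by depths of 15764577 to 22785832 fragments, and 1 fragment on a gene of 1 kilobase was worth 0.0439 to 0.0634 FPKM. Intervals given below are exact 95% Poisson intervals, and the lower limit used for a gene without fragments is 3 fragments per library. Both cover counting error alone. All retinas were rich in rod photoreceptor RNA, with SAG, which encodes rod arrestin, at 2826 to 3820.3 FPKM. HSD2 stood apart by muscle RNA. The 10 skeletal muscle genes of a marker list summed to 526 FPKM in HSD2 and to 9.17 to 12.0 FPKM in the other retinas. ND1 and ND2 stood apart from each other in the vessel genes described next.

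VWF, CLDN5, APLNR, PECAM1, TEK and CDH5 were all highest in ND1 and at 0 to 5.71% of that level in ND2, so that the retinas of the control diet lay far apart. HFSD1 was as low as ND2 or lower for each of these genes. VWF stood at 3.77 FPKM in ND1 and 0.00648 in ND2, at 1.36 and 0.893 in HFD1 and HFD2, at 0 and 0.479 in HSD1 and HSD2, and at 0 and 0.727 in HFSD1 and HFSD2. CLDN5 stood at 28.0 and 1.03 FPKM in the ND retinas, at 20.3 and 6.76 under HFD, at 1.16 and 0.794 under HSD, and at 0.534 and 6.85 under HFSD. APLNR stood at 10.6 and 0 FPKM under ND, at 4.60 and 2.40 under HFD, at 0 and 0.355 under HSD, and at 0 and 0.554 under HFSD. For all 3 genes both HFD retinas lay between the ND retinas, and HSD1 and HFSD1 were as low as ND2 or close to it.

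The same held at lower levels for the junction genes and TEK. PECAM1 stood at 1.62 and 0.0485 FPKM under ND, at 0.710 and 0.353 under HFD, at 0 and 1.27 under HSD, and at 0.0189 and 0.272 under HFSD. TEK stood at 0.894 and 0.0290 FPKM under ND, at 0.322 and 0.282 under HFD, at 0.0652 and 0.283 under HSD, and at 0.0113 and 0.196 under HFSD. CDH5 stood at 1.19 and 0.0682 FPKM under ND, at 0.645 and 0.242 under HFD, at 0 and 0.187 under HSD, and at 0 and 0.306 under HFSD. The second highest retina was HFD1 for 5 of the 6 genes and HSD2 for PECAM1. In a bulk sample, fewer endothelial cells and less RNA per endothelial cell cannot be told apart.

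**Figure D1:**
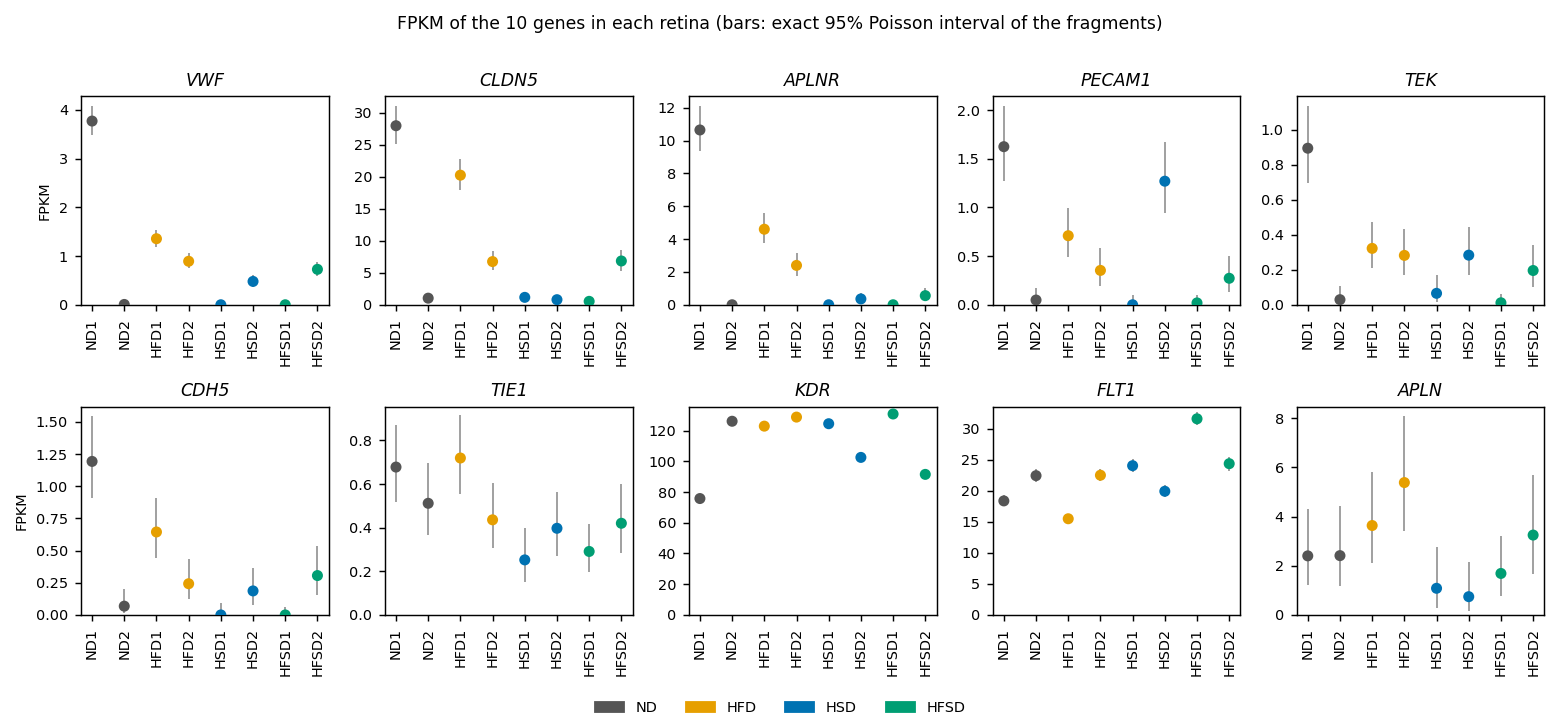
FPKM (y axis, linear, from 0) of each of the 10 genes in the 8 retinas (x axis). Points are single retinas coloured by diet and bars are exact 95% Poisson intervals of the fragment count. The first 6 panels peak in ND1 and are at 7.30% of it or less in ND2, HSD1 and HFSD1, while KDR stays between 75.8 and 131 FPKM and APLN is highest in both HFD retinas.

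These low values rest on few fragments. VWF, a gene of 8718 bases, had 643 fragments in ND1, 1 in ND2 and 0 in HSD1 and HFSD1. CLDN5, with 657 bases, had 360 fragments in ND1 and 12 in ND2, and 8 to 266 in the other retinas. APLNR had 238 fragments in ND1, 0 in ND2, HSD1 and HFSD1, 7 in HSD2 and 10 in HFSD2. The gap between the control retinas was nonetheless larger than counting error. The ratio of ND1 to ND2 was 582 for VWF (95% interval 104 to 23024), 27.2 for CLDN5 (15.4 to 53.0), 33.5 for PECAM1 (8.95 to 282), 30.8 for TEK (8.20 to 259) and 17.5 for CDH5 (5.70 to 87.3). APLNR was at least 71.8-fold higher in ND1 against the limit of 3 fragments in ND2, a bound that takes the ND1 count as exact, and the lower end of the 95% interval of its ratio was 57.9. A count of 3 fragments of APLNR corresponds to 0.148 FPKM in ND2, 0.166 in HSD1 and 0.115 in HFSD1, and the gene was not detectable in those retinas at this depth.

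For the most uneven genes the control retinas carried the largest spread of the 4 diets. VWF averaged 1.89 ± 2.66 FPKM (s.d., n = 2) under ND, 1.12 ± 0.327 under HFD, 0.239 ± 0.339 under HSD and 0.363 ± 0.514 under HFSD. CLDN5 averaged 14.5 ± 19.1 FPKM under ND, 13.5 ± 9.56 under HFD, 0.976 ± 0.258 under HSD and 3.69 ± 4.46 under HFSD. For both genes the s.d. under ND exceeded the mean, as it also did for VWF under HSD and HFSD and for CLDN5 under HFSD. APLN and FLT1 varied less under ND than under HFD or HFSD. When the diets were ordered by mean, 7 of 30 neighbouring pairs over the 10 genes had retinas that did not overlap, beside 22.4% of the pairs over all tested genes, so that this count was near the background.

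Among genes of the other cells of the medullary rays, MBP, GFAP and RGS5 varied over the retinas in an order close to that of the vessel genes, and some other markers did not. MBP, a major protein of myelin, stood at 252 FPKM in ND1, 6.55 in ND2, 172 in HFD1, 104 in HFD2, 4.34 in HSD1, 4.16 in HSD2, 4.02 in HFSD1 and 41.9 in HFSD2. GFAP, the intermediate filament of astrocytes, stood in the same order of retinas at 524, 12.1, 216, 203, 2.37, 1.08, 3.05 and 69.5 FPKM. RGS5, a pericyte gene, stood at 8.97, 0.184, 3.58, 3.38, 0, 1.32, 0.0475 and 2.27 FPKM. ND1, HFD1, HFD2 and HFSD2 were the 4 highest retinas, in this order, for MBP, GFAP, RGS5, VWF and APLNR. HFSD2 came before HFD2 for CLDN5 and CDH5, and HSD2 came before HFD2 for TEK and before HFD1 for PECAM1. As a percentage of ND1, the summed FPKM of the 6 vessel genes was 2.57 in ND2, 60.5 in HFD1, 23.7 in HFD2, 2.65 in HSD1, 7.30 in HSD2, 1.22 in HFSD1 and 19.3 in HFSD2. CLDN5 was the largest part of this sum in each retina but HSD2, where PECAM1 was. These 6 genes were grouped after their values were seen. The sum over all 10 members, of which KDR was the largest part, was 143 FPKM in ND1 and 153 in ND2.

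**Figure D2:**
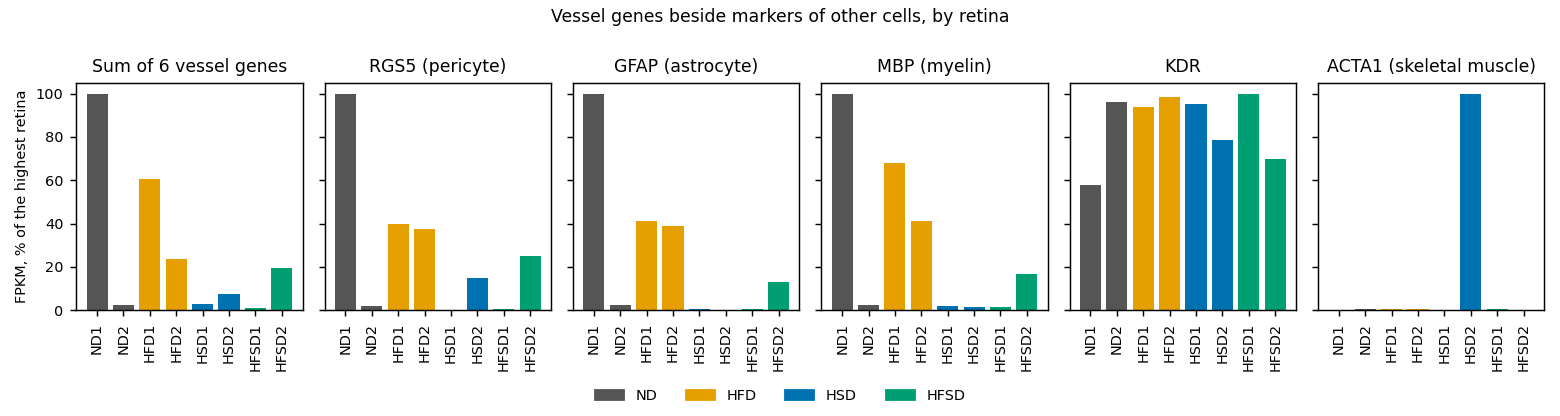
FPKM as a percentage of the highest retina (y axis) for the sum of VWF, CLDN5, APLNR, PECAM1, TEK and CDH5 (a set chosen after the values were seen), and for RGS5, GFAP, MBP, KDR and ACTA1, in the 8 retinas (x axis, bars coloured by diet). The vessel genes, RGS5, GFAP and MBP all peak in ND1 and are at 2.05 to 2.59% of it in ND2, whereas KDR in ND1 is 57.9% of its highest retina and ACTA1 is seen in HSD2.

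Over the whole marker lists, 12 of 13 myelin genes, 6 of 10 astrocyte genes and 5 of 11 mural genes with a value above 0 were highest in ND1, beside 12.0% of all protein-coding genes. This was not particular to these cells, since 6 of 11 pigment epithelium genes and 5 of 10 microglia genes were highest there too. Of the rod and Müller cell genes, 0 of 7 and 0 of 6 were. The myelin genes summed to 114 to 782 FPKM under ND, 370.4 to 519 under HFD, 56.9 to 75.6 under HSD and 75.3 to 178 under HFSD. The astrocyte genes summed to 427 to 1205 FPKM under ND, 672 to 1014 under HFD, 273 to 509.7 under HSD and 363 to 498 under HFSD. The mural genes summed to 23.9 to 48.4 FPKM under ND, 31.6 to 36.7 under HFD, 23.8 to 41.5 under HSD and 26.9 to 36.9 under HFSD. Of the defining markers, RGS5 was at 0 in HSD1, and PAX2, a transcription factor of retinal astrocytes, was at 0 in HSD1, HSD2 and HFSD1. Other markers of the astrocyte and mural lists were mixed. CSPG4, a pericyte proteoglycan, had the order of VWF over its 4 highest retinas, from 0.798 FPKM in ND1 to 0.117 in HFSD2, with 0.0721 in ND2, and KCNJ8, a pericyte potassium channel, was at 2.09 FPKM in ND1, 0.163 in ND2 and 0 in HSD1. AQP4 and PDGFRB were less uneven and ordered otherwise. HFD2 was second for AQP4 and HFSD2 for PDGFRB. By list sum, the second highest retina was HSD2 for the mural genes, and HSD1 exceeded HFSD2 and ND2 for the astrocyte genes. AQP4, the astrocyte and Müller cell water channel, ranged from 3.21 FPKM in HSD1 to 13.8 in ND1, and PDGFRB, the pericyte receptor, ranged from 2.11 FPKM in HSD1 to 4.35 in ND1. The part of these cells in the levels of the vessel genes was not tested.

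HSD2 departed from this order. PECAM1 (1.27 FPKM, 51 fragments) was second only to ND1 there, and PLVAP, a gene of fenestrated endothelium, was at 0.832 FPKM on 24 fragments against 0 to 0.157 FPKM in the other retinas. MBP and GFAP were low in HSD2, whereas 7 of 8 fibroblast and meninges genes and all 10 skeletal muscle genes were highest there, including ACTA1 (skeletal actin) at 105 FPKM against 0.0451 to 0.707 elsewhere. MYL1, a skeletal myosin light chain, was at 141 FPKM in HSD2 and at 0.177 or less in the others. The collagen genes COL1A1 and COL1A2 were at 2.22 and 2.93 FPKM in HSD2, against 1.63 and 1.43 in ND1, the next highest retina for both. The fibroblast and meninges genes summed to 53.6 FPKM in HSD2 and to 17.1 to 29.2 FPKM in the others. Blood RNA also differed between retinas. The globin gene HBB2 stood at 81.0 FPKM in ND1, 7.84 in ND2, 71.7 in HFD1, 14.9 in HFD2, 0.229 in HSD1, 42.1 in HSD2, 1.15 in HFSD1 and 18.6 in HFSD2. ND1, HFD1 and HSD2 held the most globin RNA and were also the 3 retinas with the most PECAM1, and the part of blood or of attached tissue in the PECAM1 level was not tested. The 3 platelet genes above 0 summed to 1.73 to 2.87 FPKM over all retinas. Pigment epithelium genes were highest under ND, at 606 and 760.0 FPKM in sum, and were at 202 to 454 FPKM under the other diets, an order unlike that of the vessel genes. RPE65, the visual cycle isomerase of that epithelium, was at 119 FPKM in ND1 and 74.6 in ND2, against 10.1 to 34.8 under the other diets. Microglia genes summed to 17.9 to 31.3 FPKM in the 4 retinas without sucrose and to 12.0 to 16.7 in the 4 with it, and all 10 of them were higher in ND1 than in ND2. Choriocapillaris genes summed to 40.1 to 53.8 FPKM over all retinas.

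The receptors of vascular endothelial growth factor did not follow the other vessel genes. KDR stood at 75.8 and 126 FPKM under ND, at 123 and 129 under HFD, at 124 and 103 under HSD, and at 131 and 91.5 under HFSD. FLT1 stood at 18.3 and 22.4 FPKM under ND, at 15.5 and 22.5 under HFD, at 24.0 and 19.9 under HSD, and at 31.6 and 24.3 under HFSD. ND1, the highest retina for the 6 genes above, was the lowest of all for KDR, with a ratio to ND2 of 0.601 (95% interval 0.585 to 0.617). KDR rested on 8838 to 18247 fragments per retina and FLT1 on 1476 to 3434, so that counting error was small beside the spread between retinas. Per length, the lowest KDR value exceeded the highest value of each of the other 9 genes. In ND2, KDR had 13667 fragments where VWF, TEK, PECAM1 and CDH5 together had 8. In the retina KDR is known outside vessels as well, in neurons and Müller cells.

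By diet, KDR averaged 101 ± 35.6 FPKM under ND, 126 ± 4.16 under HFD, 114 ± 15.5 under HSD and 111 ± 27.8 under HFSD (s.d., n = 2), and no neighbouring diets in this order were separated. FLT1 averaged 28.0 ± 5.11 FPKM under HFSD, 22.0 ± 2.91 under HSD, 20.4 ± 2.87 under ND and 19.0 ± 4.95 under HFD. Both HFSD retinas were above both HSD retinas and above all retinas without sucrose for FLT1, whereas HSD2 lay below ND2 and HFD2. The counting intervals of HFSD2 (23.2 to 25.5 FPKM) and HSD1 (22.9 to 25.2 FPKM) overlapped.

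TIE1 was low in every retina and varied within a narrow range. It stood at 0.678 and 0.512 FPKM under ND, at 0.719 and 0.436 under HFD, at 0.252 and 0.397 under HSD, and at 0.291 and 0.420 under HFSD. The highest retina was 2.85-fold above the lowest, against 79.2-fold for its partner TEK and 52.4-fold for CLDN5. Those 2 folds are uncertain, since the lowest value, in HFSD1, rested on 1 fragment for TEK and 8 for CLDN5. The ratio of ND1 to ND2 was 1.32 for TIE1 (95% interval 0.876 to 2.02). The TIE1 values rested on 18 to 65 fragments on 4526 bases. TIE1 was the 1 gene of the 10 for which the retinas of the sucrose diets and of the other diets did not overlap, with all 4 sucrose retinas lower (mean 0.340 ± 0.0812 against 0.586 ± 0.134 FPKM, s.d., n = 4 each). Of the 12204 protein-coding genes that entered the tests, 6.48% were lower without overlap and 6.39% were higher. TIE1 was not among them, 0 of the 7 tested members were without overlap, and 1 of 10 is near this background. The gap between HFSD2 (0.420 FPKM, 30 fragments) and HFD2 (0.436 FPKM, 36 fragments) was smaller than the counting error of either value.

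Apelin itself was also low, and it did not follow its receptor. APLN stood at 2.40 and 2.41 FPKM under ND, at 3.64 and 5.39 under HFD, at 1.08 and 0.743 under HSD, and at 1.69 and 3.25 under HFSD. Both HFD retinas were above and both HSD retinas below the ND retinas, while the HFSD retinas fell on either side. The means were 4.51 ± 1.24 FPKM under HFD, 2.47 ± 1.10 under HFSD, 2.41 ± 0.00737 under ND and 0.914 ± 0.241 under HSD (s.d., n = 2). HFD was separated from HFSD and ND from HSD in this order, and HFSD was not separated from ND.

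The APLN row covered 234 bases, and its values rested on 89 fragments in all 8 retinas: 11 in ND1, 10 in ND2, 17 in HFD1, 23 in HFD2, 4 in HSD1, 3 in HSD2, 9 in HFSD1 and 12 in HFSD2. A single fragment moved the value by 0.188 to 0.271 FPKM. The counting interval of HFD2 (3.41 to 8.08 FPKM) lay above those of HSD1 (0.295 to 2.78) and HSD2 (0.153 to 2.17), whereas that of HFD1 (2.12 to 5.82) overlapped both. ND1 and ND2 had nearly equal APLN while their APLNR was 10.6 and 0 FPKM, so that ligand and receptor were unequal in their spread over the control retinas. Ligand and receptor were also ordered differently by diet, since the mean of APLNR was 5.32 ± 7.53 FPKM under ND, 3.50 ± 1.56 under HFD, 0.277 ± 0.392 under HFSD and 0.178 ± 0.251 under HSD.

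HFD, HSD and HFSD were each set against ND, and the diets were further treated as a layout of fat and sucrose, by limma on log2(FPKM + 1). The Benjamini-Hochberg adjustment ran over the 12204 genes that reached 1 FPKM in 2 or more retinas. All 3 diets were set against the same ND retinas. Of the 10 genes, 7 passed this filter, and TEK, CDH5 and TIE1 did not. APLNR and VWF passed it only through retinas without sucrose, so that their sucrose differences are not independent of the filter. At an adjusted p under 0.05 limma called 0 of the 7 in each of the 6 comparisons, and voom on the recovered fragments called 0 as well. The share of all tested genes called was 0.00819% for HFD against ND, 0.0574% for HSD against ND, 0.0164% for HFSD against ND, 0.344% for the sucrose diets against those without sucrose, 0.00819% for the fat diets against those without fat and 0.00819% for the interaction. An unadjusted p under 0.05 was reached by 1 of the 7 genes for HFD, 1 for HSD, 0 for HFSD, 2 for sucrose, 1 for fat and 0 for the interaction. Over all tested genes it was reached by 4.31% for HFD, 7.20% for HSD, 8.07% for HFSD, 18.3% for sucrose, 3.2% for fat and 3.74% for the interaction.

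With sucrose in the diet, APLNR, CLDN5, VWF and APLN had lower means, and none of these differences passed the adjusted threshold. On the log2(FPKM + 1) scale, which understates differences of low genes, the limma difference between sucrose and other diets was -1.68 ± 0.691 (SE) for APLNR, with an adjusted p of 0.260. It was -1.93 ± 0.876 for CLDN5 (limma adjusted p = 0.293), -0.77 ± 0.474 for VWF (0.417) and -0.28 ± 0.368 for PECAM1 (0.713). In FPKM, APLNR averaged 0.227 ± 0.275 over the 4 sucrose retinas and 4.41 ± 4.56 over the 4 others, and CLDN5 averaged 2.33 ± 3.02 and 14.0 ± 12.3 (s.d.). Without a filter on low values, the sucrose differences of TIE1, CDH5 and TEK were -0.24 ± 0.0848, -0.41 ± 0.243 and -0.25 ± 0.193, with limma adjusted p-values of 0.267, 0.465 and 0.574.

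Leaving out 1 control retina moved the differences of APLNR, CLDN5, VWF and PECAM1 by the most. For APLNR, ND2 was the 1 retina without sucrose that lacked fragments, and this gene had passed the filter only through the other retinas without sucrose. Without ND2, the sucrose difference of APLNR was -2.56 ± 0.270 with a limma adjusted p of 0.0257, and without ND1 it was -0.79 ± 0.279 with an adjusted p of 0.182. For CLDN5 the difference was -2.88 ± 0.621 without ND2 and -0.97 ± 0.623 without ND1, for VWF it was -1.33 ± 0.271 and -0.21 ± 0.278, and for PECAM1 it was -0.61 ± 0.323 and 0.05 ± 0.326. APLN, nearly equal in ND1 and ND2, differed by -0.76 ± 0.223 in both cases. It moved with other retinas, to -0.60 without HFSD1, -0.93 without HFSD2, -0.88 without HFD1 and -0.65 without HFD2. CLDN5 moved with the HFSD retinas too, to -1.34 ± 0.905 without HFSD1 and -2.51 ± 0.906 without HFSD2. PECAM1 also depended on the HSD retinas, since the difference was -0.57 ± 0.356 without HSD2 and 0.02 ± 0.353 without HSD1.

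**Figure D3:**
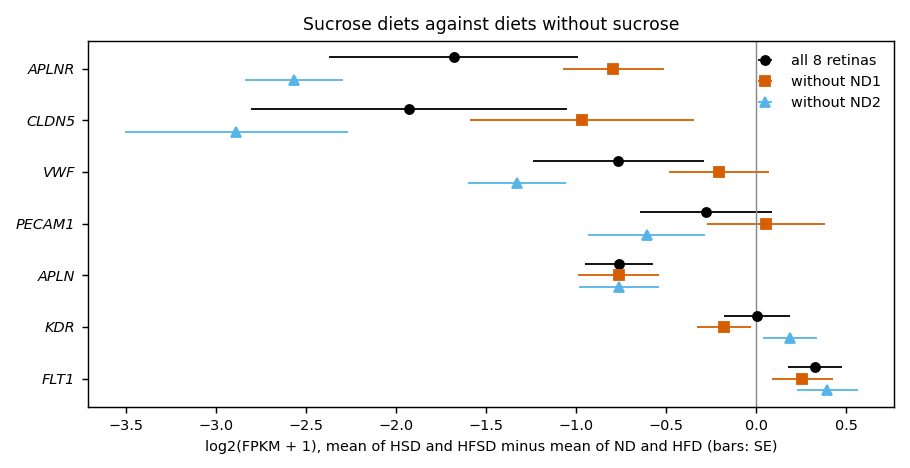
Difference in log2(FPKM + 1) between the sucrose diets and the diets without sucrose (x axis, points with bars of 1 SE) for the 7 genes that entered the tests, with all 8 retinas (circles), without ND1 (squares) and without ND2 (triangles). APLNR, CLDN5, VWF and PECAM1 move with the control retina left out, from -2.56 to -0.79 for APLNR, while APLN, nearly equal in ND1 and ND2, stays at -0.76.

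APLN had the smallest unadjusted p of the 10 genes. Its difference was -0.76 ± 0.190 for sucrose (limma unadjusted p = 0.00450, adjusted p = 0.133) and 0.75 ± 0.190 for fat (unadjusted p = 0.00489, limma adjusted p = 0.9996), and the interaction was 0.15 ± 0.379. Against ND it was 0.68 ± 0.268 under HFD, -0.84 ± 0.268 under HSD and -0.01 ± 0.268 under HFSD, none of them called by limma (adjusted p = 0.998, 0.533 and 0.993). The mean of HFD lay above and that of HSD below ND, with the mean of HFSD close to ND. KDR differed by 0.00 ± 0.184 with sucrose and 0.16 ± 0.184 with fat, and FLT1 by 0.32 ± 0.151 and 0.11 ± 0.151, with limma adjusted p-values of 0.993 and 0.302 for sucrose. The sucrose difference of FLT1 was 0.20 without HFD1 and 0.45 without HFD2.

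The study selected genes by the ratio of FPKM + 1 in a diet to that in ND, taken here from the mean of both retinas because the averaging is not stated, below 0.65 or above about the reciprocal of that limit, without a test. Under HFD 1 of the 10 genes passed as higher, APLN with a ratio of 1.62, and 0 as lower, beside 0.949% and 0.809% of all protein-coding genes. Under HSD 4 were lower, namely CLDN5 (0.127), APLNR (0.186), VWF (0.429) and APLN (0.562), and 0 were higher, beside 2.42% and 1.53%. Under HFSD 4 were lower, namely APLNR (0.202), CLDN5 (0.302), VWF (0.472) and PECAM1 (0.624), and 0 were higher, beside 2.40% and 1.03%. These counts moved most with the ND retinas. Without ND1, 4 genes were higher under HFD, 1 was lower under HSD (APLN) with PECAM1 higher at 1.56, and under HFSD 0 were lower with CLDN5 higher at 2.31. Without ND2, 7 were lower under HSD, 6 under HFSD and 4 under HFD, where KDR (1.65) and APLN (1.62) were higher. Other retinas moved them as well, since APLN was within the limits under HFD without HFD2 (1.36), APLNR and CLDN5 were lower under HFD without HFD1, 6 genes were lower under HSD without HSD2, and 5 were lower under HFSD without HFSD2.

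Of 53 further endothelial symbols on a list, 47 had a row, and many of these were again uneven between the control retinas. Among those 47, 23 were highest in ND1 and 35 were higher in ND1 than in ND2, beside 12.0% and 48.5% of all protein-coding genes with a value above 0. The summed FPKM of the list, to which abundant genes contribute most, did not follow that order and was 582 in ND1, 639.6 in ND2 and 548 to 601 in the other retinas. EMCN, the endothelial sialomucin endomucin, had 49 fragments in ND1, 24 in HFD1, 13 in HFD2, 12 in HSD2, 6 in HFSD2 and 0 in ND2, HSD1 and HFSD1. ERG, a transcription factor of endothelium, had 34, 12, 6, 6 and 3 fragments in the same 5 retinas and likewise 0 in ND2, HSD1 and HFSD1. CD93, an endothelial lectin-like receptor, had 70 fragments in ND1, 1 in ND2, 0 in HSD1 and 0 in HFSD1. ENG (endoglin) stood at 2.86 FPKM in ND1, 0.351 in ND2, 1.85 in HFD1, 1.19 in HFD2, 0.0984 in HSD1, 1.35 in HSD2, 0.0170 in HFSD1 and 0.762 in HFSD2. These 4 genes, the others plotted with them, and HBB2, PAX2, GJA1, CSPG4 and KCNJ8 were chosen for naming after their values were seen.

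**Figure D4:**
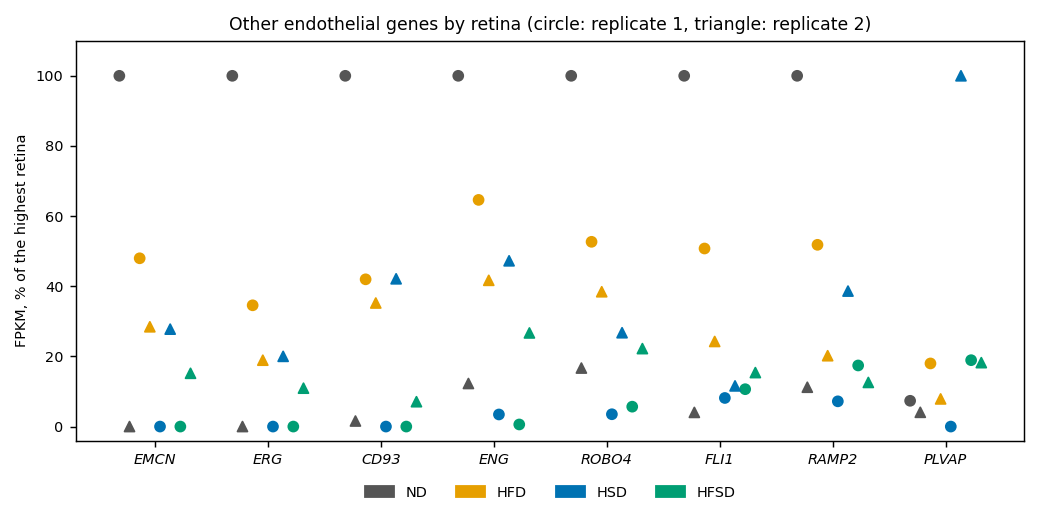
FPKM as a percentage of the highest retina (y axis) for 8 further endothelial genes (x axis). Points are single retinas, coloured by diet, with circles for replicate 1 and triangles for replicate 2. All but PLVAP are highest in ND1 and at most 16.7% of it in ND2, and PLVAP is highest in HSD2.

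By test, 21 of these 47 genes entered the sucrose comparison and limma called 0. The median difference of the 21 was -0.12, beside -0.01 over all tested genes. Of the 21, 2 had an unadjusted p under 0.05, beside 18.3% of all tested genes. The 2 with the smallest p were TJP1, the tight junction scaffold ZO-1 (0.29 ± 0.0868, limma adjusted p = 0.169), and EHD4, a protein of membrane trafficking (-0.25 ± 0.0961, limma adjusted p = 0.240). Of 22 genes with a row on a list of ligands and co-receptors of the vascular endothelial growth factor, angiopoietin and apelin systems and of transcription factors upstream of them, 14 were tested and limma called 0. Of the 14, 3 had an unadjusted p under 0.05, beside 18.3% of all tested genes. The 2 with the smallest p were EPAS1, a hypoxia-inducible transcription factor (-0.29 ± 0.0709, limma adjusted p = 0.128), and ANGPTL2, a secreted angiopoietin-like protein (-0.44 ± 0.137, limma adjusted p = 0.179). EPAS1 stood at 94.2 to 103 FPKM in the 4 retinas without sucrose and at 78.3 to 82.9 in the 4 with it, so that the groups did not overlap although the difference was not called. The third was VEGFC, a ligand of the growth factor family that acts mainly on lymphatic endothelium, and it was named after its values were seen. VEGFC stood at 2.25 and 2.19 FPKM under ND, at 2.91 and 0.304 under HFD, at 3.59 and 3.15 under HSD, and at 5.47 and 4.57 under HFSD. All 4 sucrose retinas were thus above the others, with a difference of 0.92 ± 0.313 (limma adjusted p = 0.201). Of all tested genes, 6.48% were lower without overlap, as EPAS1 was, and 6.39% were higher, as VEGFC was. No row carried the symbol VEGFA, VEGFB, FGF2 or APELA, and these were not analysed here.

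With all retinas and 1 coefficient per diet, the single call in these pathway lists was EFNB2, the ephrin-B2 ligand known from arterial endothelium and also from the neural retina. EFNB2 stood at 12.3 and 24.2 FPKM under ND, at 18.4 and 23.1 under HFD, at 2.98 and 2.40 under HSD, and at 3.26 and 6.76 under HFSD. All 4 sucrose retinas were below all others, as for 6.48% of all tested genes. ND1 was the lowest of the retinas without sucrose, so that EFNB2 did not follow VWF or CLDN5. Its sucrose difference was -2.11 ± 0.256 with a limma adjusted p of 0.0311, and the adjusted p lay between 0.0620 and 0.106 under 7 of the alternatives, including no filter, voom and the omission of either HFD or either HSD retina. The difference itself kept its size, at -2.34 to -1.88 with each retina left out and -2.40 to -2.08 under the other alternatives. It was 1 of 12 tested Notch and Wnt genes of the vessel wall, of which 6 had an unadjusted p under 0.05 with sucrose and 10 had a lower mean, beside 18.3% and 51.3% of all tested genes. NDP, the ligand norrin that is needed for retinal vessels, stood at 6.61 to 10.8 FPKM without sucrose and 4.46 to 5.34 with it (-0.68 ± 0.116, limma adjusted p = 0.0775). APCDD1, an inhibitor of Wnt signals at the blood-retina barrier, stood at 13.9 to 23.7 FPKM without sucrose and 7.54 to 9.77 with it (-0.94 ± 0.171, limma adjusted p = 0.0838). APCDD1 was called without ND2 (limma adjusted p = 0.0319) and in a fit of 2 groups of 4 retinas (0.0341). Among markers of glia, GJA1, the astrocyte connexin 43, differed with sucrose by -2.80 ± 0.344 (limma adjusted p = 0.0311), and GLUL, glutamine synthetase of Müller cells, by -1.07 ± 0.156 (limma adjusted p = 0.0501). The part of glial RNA in the level of EFNB2, NDP or APCDD1 was not tested.

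Of 15 tip cell genes with a row, 11 were tested and limma called 0 with sucrose. Of the 11, 3 had an unadjusted p under 0.05, beside 18.3% of all tested genes. COTL1, an actin-binding protein, differed by -0.40 ± 0.140 and NID2, a basement membrane protein, by 0.37 ± 0.139 (limma adjusted p = 0.208 and 0.234). The COTL1 difference was -0.55 without ND1 and -0.25 without ND2. Of 21 hypoxia response genes with a row, 19 were tested and limma called 0, with 5 at an unadjusted p under 0.05, beside 18.3% of all tested genes. SLC2A1, the glucose transporter of the blood-retina barrier and of photoreceptors, stood at 246 to 303 FPKM without sucrose and 169 to 211 with it (-0.54 ± 0.106, limma adjusted p = 0.0922, and 0.0384 in a fit of 2 groups of 4 retinas), and PFKFB4, a regulator of glycolysis, differed by -0.40 ± 0.111 (limma adjusted p = 0.158). In the comparisons of single diets with ND, limma called 0 genes of these 5 lists, with 2 of their 74 tested genes at an unadjusted p under 0.05 for HFD, 9 for HSD and 7 for HFSD, beside 4.31%, 7.20% and 8.07% of all tested genes.

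The genes most like the members over the 8 retinas were found by the mean absolute difference of log2(FPKM + 1), each gene centred on its own mean, among 9870 tested genes with a symbol. For the mean of KDR, FLT1, PECAM1, CLDN5 and VWF these were AGPAT4, CTSS, VSIR, RAPGEF3 and SEMA3G, at differences of 0.0617 to 0.117, where the profile itself departed from its mean by 0.398. This mean joins unlike genes, since KDR was lowest in ND1, where AGPAT4 stood at 6.15 FPKM against 1.67 in ND2. For the mean of VWF, CLDN5, APLNR, PECAM1, TEK and CDH5, a set chosen after the values were seen, the most alike genes were ABCB1, BGN, RARRES1, LMO3 and VXN at 0.114 to 0.155, against 0.615. ABCB1, the efflux pump of barrier endothelium, stood at 3.07 FPKM in ND1, 0.0313 in ND2, 1.28 in HFD1, 0.873 in HFD2, 0.106 in HSD1, 0.289 in HSD2, 0.0669 in HFSD1 and 0.501 in HFSD2. For APLN they were CHST3, PRELP, ISG15, APOLD1 and CTBS at 0.197 to 0.251, against 0.472, which was a looser likeness. APOLD1, an endothelial gene of vessel remodelling, stood at 1.78 and 2.12 FPKM under ND, at 2.82 and 3.30 under HFD, at 1.02 and 0.699 under HSD, and at 0.999 and 1.02 under HFSD. CHST3, a chondroitin sulphotransferase, stood at 2.21 and 2.62 FPKM under ND, at 3.05 and 4.37 under HFD, at 1.06 and 1.15 under HSD, and at 1.64 and 1.69 under HFSD. Both were highest in the HFD retinas and lowest under sucrose, as APLN was but for HFSD2.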

How the data were processed

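Retinal RNA was extracted with TRIzol and treated with DNase, and libraries were made with a TruSeq kit for a HiSeq instrument. The authors cut off 5′ ends, mapped reads with TopHat2, discarded reads with several positions and computed FPKM per gene and library with an R script of their own. The genome build and annotation are not given in the sources used here, so no coordinates are given. The deposited table is named for counts but its values are FPKM, so that limma was used in place of the count test that had been planned. Depth and gene length were recovered from the FPKM steps, with each gene given the smallest length that makes all its fragments whole; such lengths are exact only if these fragment numbers share no common factor. The procedure was tested on simulated data.

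Libraries were grouped by their titles. Values were analysed as log2(FPKM + 1) with limma 3.58.1 in R 4.3.3 (trended prior, 1 coefficient per diet, all 8 libraries, two-sided), over protein-coding genes that reached 1 FPKM in 2 or more libraries, and an adjusted p under 0.05 was called. On simulated HSD against ND data with 12204 genes, 200 of 200 genes changed by 2 on the log2 scale were recovered with 8 false calls. The changed genes were drawn among genes with more fragments than APLN had in any retina. The simulated spread between retinas was far smaller than that of VWF or CLDN5 under ND. This recovery therefore does not measure the power for the low or uneven members. With 2 retinas against 2 an exact permutation test cannot go below p = 0.333, so none was run. Named pathway genes are all those called in any comparison and otherwise the 2 with the smallest unadjusted p for sucrose per list. The 10 genes and the gene lists were chosen with earlier results of these data known. Alternatives were another pseudocount, no filter, no trend, both rescalings, voom on recovered fragments, a replicate block, fits of subsets and the omission of each library. A RefSeq table of another rabbit assembly held all 10 symbols and lists APLN there as a lncRNA.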

Additional observations from a re-analysis of the deposited data

How the results depend on the processing

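The count of 0 called genes held under all alternatives for HFD, HSD and HFSD against ND, for fat and for the interaction. For sucrose it ranged from 0 to 1 when each library was left out, with APLNR called without ND2, the retina without sucrose in which it lacked fragments. With a pseudocount of 0.1 the study's fold limits were passed as lower by 1 gene under HFD, 7 under HSD and 6 under HFSD. When each library was left out, 0 to 4 genes were higher and 0 to 4 lower under HFD, 0 to 1 higher and 1 to 7 lower under HSD, and 0 to 1 higher and 0 to 6 lower under HFSD, and 1 to 3 genes did not overlap between sucrose and other diets. Those were APLNR and VWF besides TIE1 without ND2, FLT1 (higher) without HSD2 and APLN without HFSD2. Ranges were computed for sucrose and, against ND, for APLN, APLNR and CLDN5, and among these the directions that turned when a library was left out were those of KDR (-0.18 to 0.19) and PECAM1 (-0.61 to 0.0526) for sucrose, APLN for HFSD (-0.34 to 0.32), APLNR for HFD (-1.42 to 2.12), HSD (-3.32 to 0.22) and HFSD (-3.22 to 0.32), and CLDN5 for HFD (-1.18 to 2.66) and HFSD (-3.06 to 0.77). By the ratio of means, leaving out ND1 also turned VWF (0.735 to 2.11 for HFD, 0.429 to 1.23 for HSD, 0.472 to 1.35 for HFSD), PECAM1 (0.834 to 1.46, 0.890 to 1.56 and 0.624 to 1.09), TEK, CDH5 and KDR for all 3 diets, TIE1 for HFD and FLT1 for HSD. Scaling to the sum of fragments turned APLN for HFSD from -0.012 to 0.0117. The sucrose difference of APLNR was -3.01 with a pseudocount of 0.1 and -3.75 by voom, that of VWF was -1.74 and -3.62, and that of PECAM1 was -0.99 and -1.91, none of them called. Equal replicate numbers did not pair the samples (correlation of their deviations -0.165 to 0.0813 over genes), and with the replicate number as a block 0 of the 7 genes were called in each comparison, the lowest limma adjusted p being 0.164 for APLN with sucrose. Depth limits the low genes, with 3 to 23 fragments per library for APLN and 0 in some libraries for APLNR, CDH5, PECAM1 and VWF.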
